A study of Mus musculus with 18 samples.

Results

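The 9 genes described here encode proteins that store actin monomers, start and bundle actin filaments, move along them, anchor them at adhesion sites or guide microtubules: Tmsb10, Fnbp1l, Myo1e, Coro2a, Efhd2, Tns1, Lims1, Sdc4 and Dpysl2. They were taken by gene symbol from the 55401 genes counted in each library, from a list that was drawn up because several of them had differed in these same libraries when Smim30, the gene of a small membrane protein, was changed. Their values in the 3 Smim30 comparisons are therefore a description and carry no test. All 9 were found and passed the filter on low counts in every comparison. The study measured total RNA of mouse macrophages by RNA sequencing in 18 libraries, 3 in each of 6 groups, and every group, controls included, was labelled C57BL/6J and had received 5 ng/ml lipopolysaccharide (LPS), which macrophages sense as a sign of bacteria, for 6 h. Peritoneal macrophages came from SMIM30-Mut mice (Mut) and from wild-type mice (WT). A second part of the series used Mut macrophages that received the SMIM30 overexpression adenovirus (labelled Mut-SMIM30-OE, here Mut AdSmim30) or a control adenovirus (labelled Mut-Control, here Mut AdCtrl) 6 h after seeding, with 24 h of virus ahead of LPS. The last part was made with IC-21, a virus-transformed cell line derived from mouse peritoneal macrophages, transfected for 24 h with siSMIM30 (here siSmim30) or siControl (here siCtrl). The labels give neither the mutated bases, nor the virus insert, nor the siRNA sequence, and do not say whether WT mice were littermates of Mut mice. They name triplicates without saying whether these were separate mice or cultures, so a p-value here covers the spread among these libraries alone, and that spread may be technical.

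Macrophages spread, crawl and engulf particles by assembling branched actin under the membrane and by coupling actin to the surface beneath them through integrins and proteoglycans. Thymosins hold actin monomers in reserve, proteins of the WASP pathway start new branches, and coronins, myosins and bundling proteins shape the filaments. Tensins and the complex of integrin-linked kinase, PINCH and parvin tie integrins to actin, and LPS is known to change macrophage shape and adhesion through this machinery.

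Promoter sequence was printed for Sdc4, Fnbp1l and Myo1e, because theirs were the member promoters that held a match to the kappaB site, bound by the LPS-activated factor NF-kappaB, or to the CArG box, bound by serum response factor, a regulator of many actin genes. RefSeq promoters in GRCm38.p6, each 300 bases long with 250 before and 50 after the transcription start, were at hand for 8 of the 9 genes as 13 sequences. Each sequence below runs 5′ to 3′ on the gene's own strand and the capitals mark the match. Sdc4 is shown at chr2:164443139-164443438 on the minus strand, Fnbp1l at chr3:122619665-122619964 on the minus strand and Myo1e at chr9:70207100-70207399 on the plus strand.
Sdc4: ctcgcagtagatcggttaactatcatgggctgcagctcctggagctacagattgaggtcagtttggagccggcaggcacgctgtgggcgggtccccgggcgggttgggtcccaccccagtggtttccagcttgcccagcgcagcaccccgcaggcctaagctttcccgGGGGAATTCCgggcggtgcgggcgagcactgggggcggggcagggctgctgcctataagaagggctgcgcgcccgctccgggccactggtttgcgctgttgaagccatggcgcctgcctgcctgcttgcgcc
Fnbp1l: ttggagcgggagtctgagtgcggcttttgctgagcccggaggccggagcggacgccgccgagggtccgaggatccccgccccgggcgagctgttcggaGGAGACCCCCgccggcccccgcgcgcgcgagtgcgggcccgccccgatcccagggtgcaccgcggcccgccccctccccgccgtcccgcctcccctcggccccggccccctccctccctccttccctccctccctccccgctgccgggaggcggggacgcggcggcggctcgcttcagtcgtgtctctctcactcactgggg
Myo1e: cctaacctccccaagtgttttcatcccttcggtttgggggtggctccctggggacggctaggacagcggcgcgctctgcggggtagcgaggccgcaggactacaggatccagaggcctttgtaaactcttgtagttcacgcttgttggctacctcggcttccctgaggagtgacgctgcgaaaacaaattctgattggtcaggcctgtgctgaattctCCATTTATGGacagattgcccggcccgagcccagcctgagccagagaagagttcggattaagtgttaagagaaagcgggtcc
The first base of the match lay 82 bases before the start in Sdc4, 152 before it in Fnbp1l and 32 before it in Myo1e. Searched on both strands, a kappaB site stood in 8.459% and a CArG box in 1.629% of all 32851 promoters, against 2 and 1 of the 13. The GC box GGGCGG stood in 9 of the 13, those of 7 genes, and in 35.66% of all promoters. The AP-1 site TGANTCA (7.808% of all promoters) and the ETS core CCGGAAGT (3.887%) stood in 0 of the 13. The 13 held 35.67 to 78.33% G and C, against a median of 52.67% over all promoters. GC-rich motifs are found more often in GC-rich sequence, and a match of letters is not a measured binding site.

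Libraries held 6855245 to 13456857 read pairs assigned to genes. Smim30, listed under the clone name 2610001J05Rik, stood at 42.3 to 52.9 CPM (counts scaled to a common library total) in Mut and 44.3 to 50.9 CPM in WT, at 51.6 to 55.1 CPM in Mut AdSmim30 and 42.2 to 45.9 CPM in Mut AdCtrl, and at 8.83 to 12.03 CPM in siSmim30 and 20.02 to 22.5 CPM in siCtrl. The 7 macrophage markers were detected in all 6 groups. In bulk RNA, fewer cells of a type and less RNA per cell cannot be told apart. Relatives of the 9 genes, named below with tests, were also chosen with earlier results of these data known. Their tests are therefore not independent of the data. The genes' levels below are CPM over each library's own total, as mean ± SD with n = 3, and log2 fold changes come from fits to the 6 libraries of each comparison, with libraries scaled by edgeR's TMM method, and are given with their SE.

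**Figure D1:**
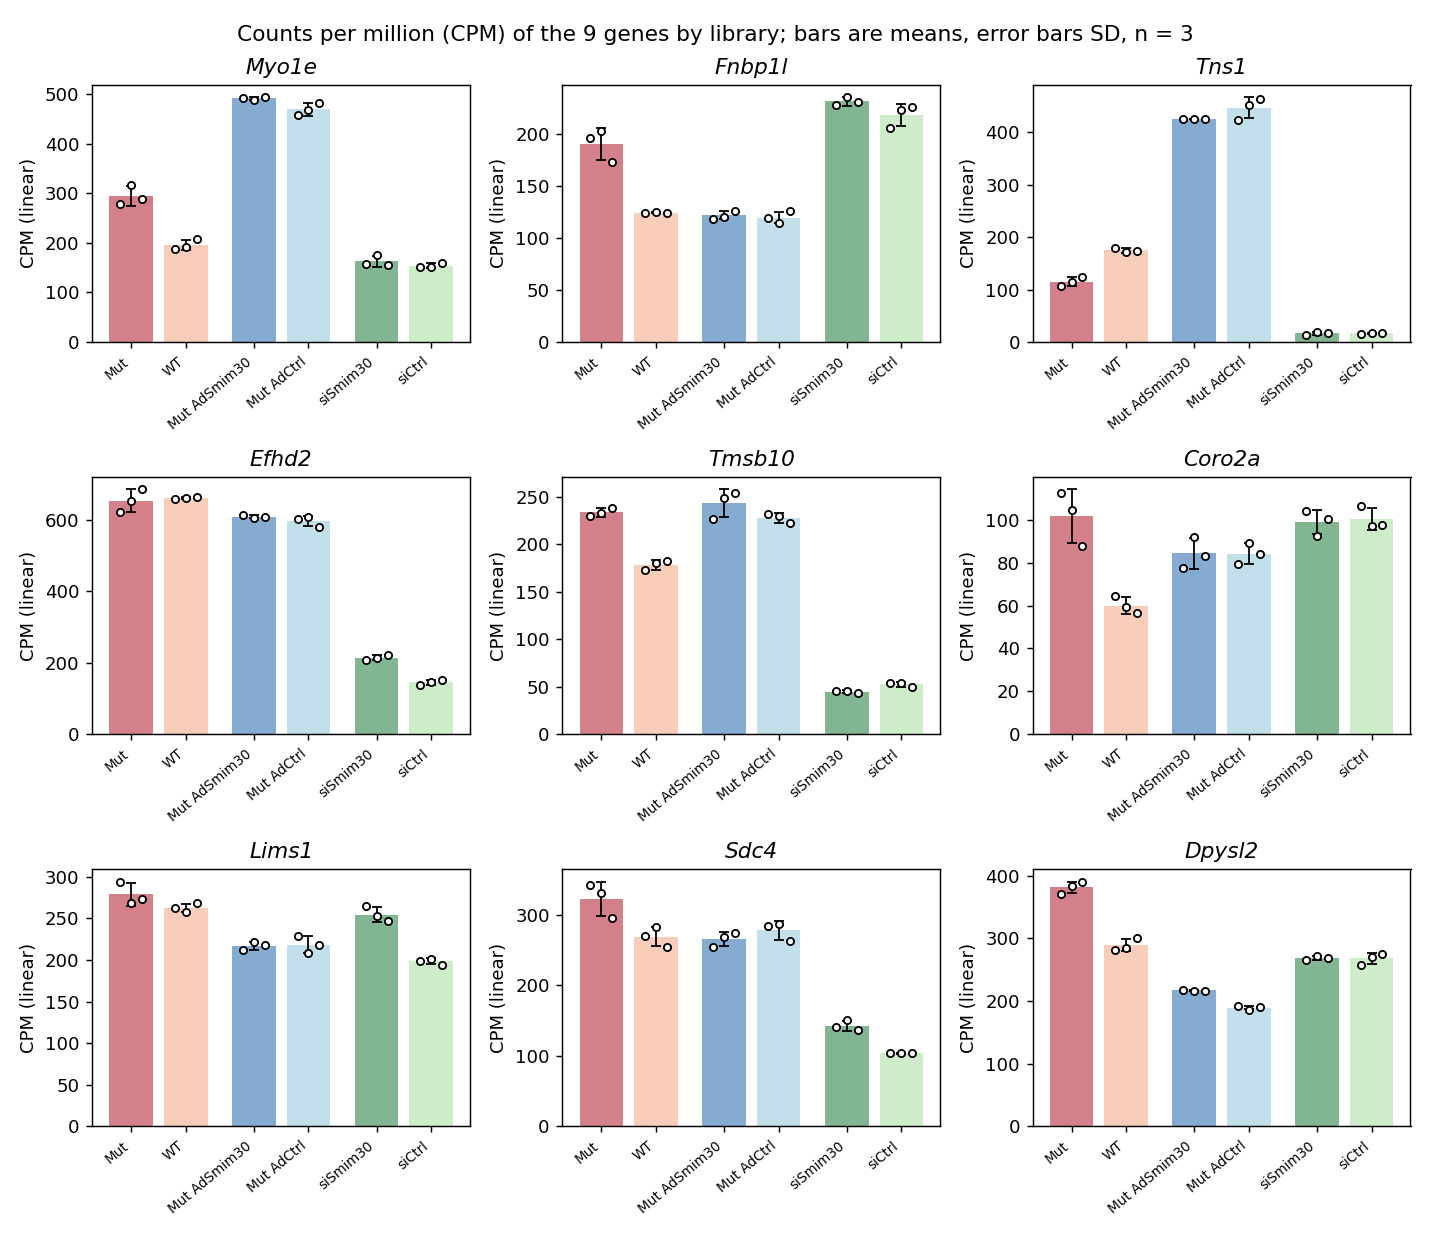
Levels of the 9 genes in CPM on linear axes from 0 (vertical) in the 6 groups (horizontal); open points are the 3 libraries of a group, bars their mean and error bars the SD. Coro2a averaged 102 CPM in Mut and 59.99 CPM in WT, while Tns1 averaged 425 CPM in Mut AdSmim30, 447 CPM in Mut AdCtrl, 16.3 CPM in siSmim30 and 16.9 CPM in siCtrl.

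In Mut macrophages 7 of the 9 genes were higher than in WT with no overlap of libraries, Myo1e, Fnbp1l, Tmsb10, Coro2a, Lims1, Sdc4 and Dpysl2. Tns1 was lower without overlap and Efhd2 overlapped. Over all 12500 genes tested, 12.8% were higher and 10.1% lower without overlap. With siSmim30, Fnbp1l, Efhd2, Lims1 and Sdc4 were higher and Tmsb10 lower than with siCtrl without overlap, where 7.86% of 13576 genes were higher and 11.2% lower. In Mut AdSmim30 cells Myo1e and Dpysl2 were higher than in Mut AdCtrl cells without overlap, where 6.99% of 12701 genes were higher and 8.06% lower. The 9 were chosen on these comparisons, so nothing is read from their counts against these shares. Their median log2 fold change was 0.38 for Mut over WT (all genes -0.006), 0.10 for siSmim30 over siCtrl (all genes -0.002) and 0.03 for Mut AdSmim30 over Mut AdCtrl (all genes 0.000).

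**Figure D2:**
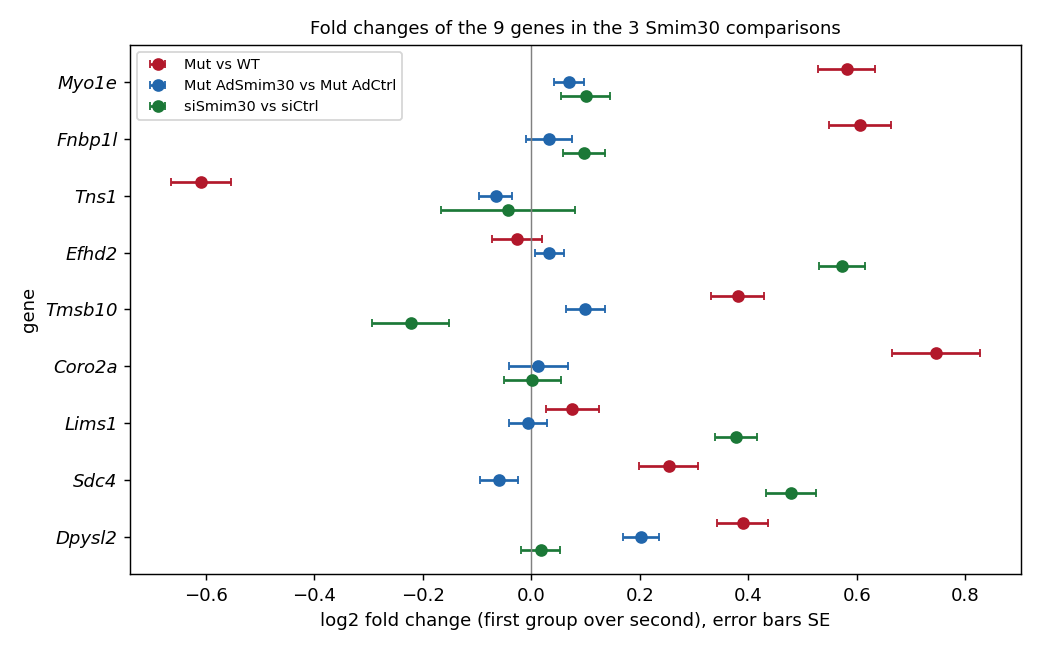
Log2 fold change (horizontal, error bars SE) of each gene (vertical) for Mut over WT, Mut AdSmim30 over Mut AdCtrl and siSmim30 over siCtrl. Fold changes for Mut over WT run from -0.61 for Tns1 to 0.75 for Coro2a, those for siSmim30 over siCtrl from -0.22 for Tmsb10 to 0.57 for Efhd2, and those for the virus from -0.07 for Tns1 to 0.20 for Dpysl2.

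Thymosin beta-10, the product of Tmsb10, binds actin monomers and keeps them from polymerising. The gene (ENSMUSG00000079523.8) lies on chromosome 6, minus strand, 72957347 to 72958748 (GRCm38, as for all genes below), the only one of the 9 on the chromosome of Smim30, 59.09 Mb away from it. Tmsb10 had 229.8, 233 and 239 CPM in the Mut libraries, against 173, 180.4 and 183 CPM in the WT libraries. Every Mut library lay above every WT library, and the fitted level was 1.30-fold higher in Mut (log2 fold change 0.38, SE 0.049). In IC-21 cells the order was the other way round, with 45.7, 45.1 and 42.9 CPM in siSmim30 libraries, against 53.7, 54.4 and 49.6 CPM in siCtrl libraries. All siSmim30 libraries lay below all siCtrl libraries (85.7% of control, log2 fold change -0.22, SE 0.071). Mut AdSmim30 libraries had 227, 249 and 255 CPM, against 232, 230.5 and 222 CPM in Mut AdCtrl, which overlap (log2 fold change 0.10, SE 0.036). The mean was highest in Mut AdSmim30, then Mut, Mut AdCtrl, WT, siCtrl and siSmim30, and only the first 3 overlapped with their neighbour.

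Tmsb10 could share reads with near-identical copies, so its count is uncertain. Among genes in the annotation, 6 others were at least 95% identical to it over at least 100 bases, foremost Gm9844, annotated as protein-coding, at 99.142% identity over 466 bases and up to 761 counts in a library. Tmsb10 held 68.88 to 82.01% of the summed counts of all 7 in a library. The sum averaged 304 ± 19.3 CPM in Mut and 233 ± 3.58 CPM in WT, a ratio of 1.30. It averaged 59.7 ± 2.45 CPM in siSmim30 and 66.2 ± 0.534 CPM in siCtrl, a ratio of 0.901. The siSmim30 sums, at 57.4 to 62.3 CPM, again lay below the siCtrl sums, at 65.6 to 66.7 CPM. For the virus the sums did not overlap, at 313 to 326 CPM in Mut AdSmim30 and 283 to 297 CPM in Mut AdCtrl (ratio 1.10), while Tmsb10 alone did. Tmsb4x, the gene of the related monomer-binding thymosin beta-4, rose to 1623 ± 52.1 CPM in Mut, against 1394 ± 127 CPM in WT (log2 fold change 0.21, SE 0.055, adjusted p = 0.0244 by edgeR's quasi-likelihood test). That call was lost without WT replicate 1 or 2 or Mut replicate 1 or 2, over a range of 0.000484 to 0.134. Tmsb4x was at 718 ± 26.0 CPM in siSmim30 and 725 ± 31.7 CPM in siCtrl (log2 fold change 0.00, SE 0.032, adjusted p = 0.979).

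**Figure D3:**
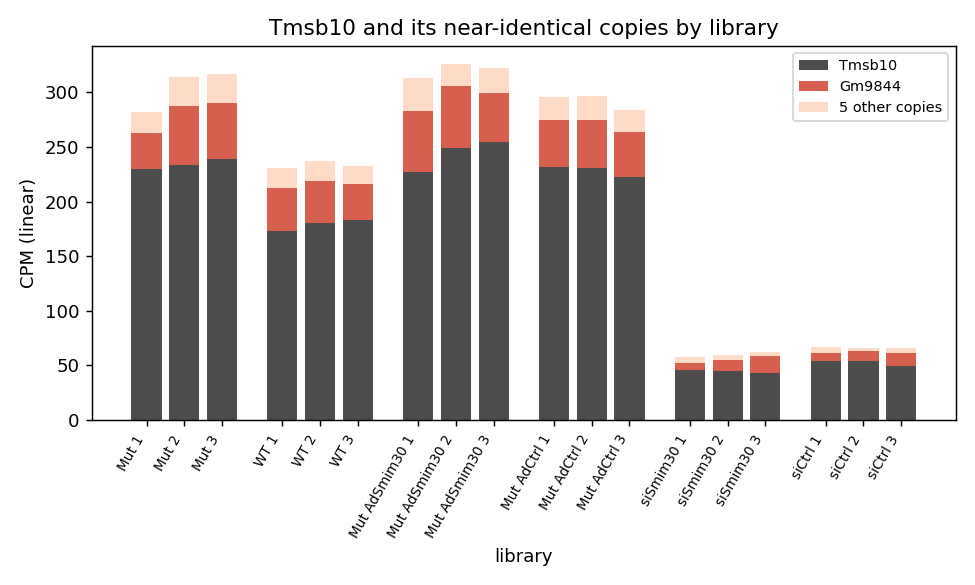
Stacked CPM (vertical, linear from 0) of Tmsb10, of Gm9844 and of the 5 other near-identical copies in each of the 18 libraries (horizontal). The sum runs from 282 to 317 CPM in Mut and 230.4 to 237 CPM in WT, and from 57.4 to 62.3 CPM in siSmim30 and 65.6 to 66.7 CPM in siCtrl.

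Fnbp1l (ENSMUSG00000039735.16, chromosome 3, minus strand, 122538719 to 122619715) encodes an F-BAR protein, also called Toca-1, that bends membranes and, with N-WASP, starts branched actin. It had 196, 202 and 173 CPM in Mut libraries, against 123, 125 and 124 CPM in WT libraries. The Mut libraries lay far above the tight WT group, a 1.52-fold difference (log2 fold change 0.61, SE 0.057). It had 227, 235 and 230.5 CPM in siSmim30, against 206, 222 and 226 CPM in siCtrl, groups that only just part (1.07-fold, log2 fold change 0.10, SE 0.039). With virus it stood at 122 ± 3.9 CPM in Mut AdSmim30 and 119 ± 5.7 CPM in Mut AdCtrl, with overlap. By library total, siSmim30 stood highest, then siCtrl, Mut, WT, Mut AdSmim30 and Mut AdCtrl, the last 3 overlapping with their neighbours. On effective sizes, which also correct for RNA composition, Mut came first, at 226 ± 17.4 CPM, against 167 ± 2.87 CPM in siSmim30 and 155 ± 8.59 CPM in siCtrl. A transcript of unknown coding status on the same strand, Gm42994, overlaps the gene and had up to 57 counts in a library. Its closest relatives, Fnbp1 and Trip10, were not called by edgeR in any Smim30 comparison. Fnbp1 was at 159.8 ± 3.3 CPM in Mut and 154 ± 2.78 CPM in WT (log2 fold change 0.05, SE 0.050, adjusted p = 0.711), and Trip10 had a log2 fold change of 0.05 there (SE 0.084, adjusted p = 0.849).

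Myo1e (ENSMUSG00000032220.10, chromosome 9, plus strand, 70207350 to 70399766) encodes a class I myosin, a motor that links actin to membranes during endocytosis and phagocytosis. The Mut libraries had 278, 317 and 288 CPM, against 187, 192 and 207 CPM in the WT libraries. The groups were wide apart, with a fitted level 1.5-fold higher in Mut (log2 fold change 0.58, SE 0.053). Mut AdSmim30 libraries had 491, 488 and 493 CPM, against 457.5, 467 and 483 CPM in Mut AdCtrl, a gap of a few CPM between the nearest libraries (1.05-fold, log2 fold change 0.07, SE 0.028). The 12 fibroblast and mesothelial markers summed to 52.2 to 59.8 CPM in Mut AdSmim30, where Msln and Krt19 were at 0, and 95.6 to 115.7 CPM in Mut AdCtrl, and their part in this gap was not tested. In IC-21 the groups overlapped at 163 ± 11.5 CPM in siSmim30 and 154 ± 5.1 CPM in siCtrl. The order from the highest was Mut AdSmim30, Mut AdCtrl, Mut, WT, siSmim30 and siCtrl, and only the last pair overlapped. Other class I myosins had smaller fold changes between Mut and WT. Myo1g rose to 237 ± 9.2 CPM in Mut, against 208 ± 10.03 CPM in WT (log2 fold change 0.18, SE 0.052, adjusted p = 0.0303). Myo1f fell to 540 ± 34.4 CPM in Mut, against 601 ± 15.1 CPM in WT (log2 fold change -0.16, SE 0.048, adjusted p = 0.0351). The call of Myo1g was lost with DESeq2 and without WT replicate 1 or 2 or Mut replicate 1 or 3 (highest adjusted p 0.181). That of Myo1f was lost with DESeq2, without a filter and without WT replicate 2 or 3 or Mut replicate 1 or 2 (highest 0.199). Myo1c did not pass (log2 fold change -0.03, SE 0.047, adjusted p = 0.859).

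Coro2a (ENSMUSG00000028337.14, chromosome 4, minus strand, 46536937 to 46602202) encodes a coronin, a family that binds actin filaments. In mouse macrophages its product is also known as a part of the NCoR corepressor complex on genes induced by Toll-like receptors. It had the largest fold change of the 9 in the mutant, at 112, 105 and 87.9 CPM in Mut libraries, against 64.2, 59.3 and 56.4 CPM in WT libraries. Even the lowest Mut library lay above all of WT (1.68-fold, log2 fold change 0.75, SE 0.081), and the fold change ran from 0.67 to 0.85 as each library was left out. Neither other perturbation parted the groups, with 98.99 ± 5.8 CPM in siSmim30 and 100.3 ± 5.2 CPM in siCtrl (log2 fold change 0.00) and 84.3 ± 7.3 CPM in Mut AdSmim30 and 84.2 ± 4.9 CPM in Mut AdCtrl (log2 fold change 0.01). By library total the order was Mut, siCtrl, siSmim30, Mut AdSmim30, Mut AdCtrl and WT, in which siSmim30 and Mut AdSmim30, and Mut AdCtrl and WT, were the neighbours without overlap. On effective sizes IC-21 levels, 71.4 ± 4.22 CPM in siSmim30 and 71.2 ± 3.16 CPM in siCtrl, came beside the 71.4 ± 3.38 CPM of WT. Among its relatives, Coro1a, the coronin most studied in leukocytes, rose with the siRNA to 150.1 ± 10.5 CPM in siSmim30, against 128 ± 3.76 CPM in siCtrl (log2 fold change 0.25, SE 0.046, adjusted p = 0.000245). It did not pass in Mut over WT (log2 fold change 0.08, SE 0.068, adjusted p = 0.635). Coro1b, Coro1c and Coro7 did not pass in the main fit of any of the 3 Smim30 comparisons, and Coro2b was below the filter. For Coro1b with siSmim30 the adjusted p was 0.0739 in the main edgeR fit and ran from 0.036 to 0.512 over the alternatives.

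Efhd2 (ENSMUSG00000040659.3, chromosome 4, minus strand, 141858142 to 141874920) encodes swiprosin-1, a calcium-binding protein that bundles actin filaments. It had 207, 214 and 220.0 CPM in siSmim30 libraries, against 138, 147 and 150.0 CPM in siCtrl libraries. The gap between the groups was wider than either group (1.49-fold, log2 fold change 0.57, SE 0.042). In primary cells it differed little with Smim30, at 621, 652 and 685 CPM in Mut libraries, against 658, 659.9 and 663 CPM in WT libraries. The WT values fell within the Mut range (log2 fold change -0.03, SE 0.046). Mut AdSmim30, at 609 ± 4.7 CPM, overlapped with Mut AdCtrl, at 596 ± 14.3 CPM. WT and Mut stood highest, then Mut AdSmim30 and Mut AdCtrl, then siSmim30 and siCtrl, with overlap within the first and the second pair. Its relative Efhd1 was below the filter in all comparisons.

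Tns1 (ENSMUSG00000055322.16, chromosome 1, minus strand, 73910231 to 74124449) encodes a tensin, which ties the tails of integrins to actin at mature adhesions. It was the only one of the 9 that was lower in Mut without overlap, with 106, 115 and 123.5 CPM in Mut libraries, against 179, 171 and 173 CPM in WT libraries. The Mut level was 65.5% of WT (log2 fold change -0.61, SE 0.056). With virus it was 424, 426 and 426 CPM in Mut AdSmim30 libraries, against 424, 452 and 464 CPM in Mut AdCtrl libraries, which touch at their lower end (log2 fold change -0.07, SE 0.030). In IC-21 it was low, at 16.3 ± 3.1 CPM in siSmim30 and 16.9 ± 1.05 CPM in siCtrl (log2 fold change -0.04, SE 0.12). From the highest, the order was Mut AdCtrl, Mut AdSmim30, WT, Mut, siCtrl and siSmim30, with overlap within both virus groups and within both IC-21 groups. Tns3, another tensin, was at 364 ± 6.19 CPM in Mut, against 413 ± 10.4 CPM in WT (log2 fold change -0.19, SE 0.046, adjusted p = 0.00731 by edgeR). Without WT replicate 3 or Mut replicate 2 that call was lost, with a highest adjusted p of 0.0791. In IC-21, Tns3 stood at 509 ± 6.25 CPM in siSmim30 and 508 ± 7.54 CPM in siCtrl (adjusted p = 0.837).

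Lims1 (ENSMUSG00000019920.18, chromosome 10, plus strand, 58323466 to 58424691) encodes PINCH-1, the LIM-domain adaptor that joins integrin-linked kinase and parvin at integrin adhesions. It had 265, 253 and 246 CPM in siSmim30 libraries, against 199, 202 and 194.5 CPM in siCtrl libraries. The siSmim30 libraries lay well clear of the controls (1.30-fold, log2 fold change 0.38, SE 0.038). The Mut libraries, at 294, 269 and 273 CPM, lay just above the WT libraries, at 262, 258 and 268 CPM (log2 fold change 0.075, SE 0.049). Mut AdSmim30 and Mut AdCtrl overlapped at 217 ± 4.7 CPM and 218 ± 10.1 CPM. By library total the order was Mut, WT, siSmim30, Mut AdCtrl, Mut AdSmim30 and siCtrl, with overlap of WT with siSmim30 and of both virus groups. On effective sizes siSmim30, at 184 ± 7.92 CPM, fell below both virus groups, at 255 ± 6.12 CPM in Mut AdSmim30 and 256 ± 10.9 CPM in Mut AdCtrl. Its partners in the complex did not pass in the main fit of any Smim30 comparison in which they were tested. Ilk had log2 fold changes of -0.06 in Mut (SE 0.060, adjusted p = 0.689) and -0.03 with siSmim30 (SE 0.048, adjusted p = 0.873). Parvb was nearest to the threshold in Mut, at 162 ± 1.44 CPM, against 178 ± 4.92 CPM in WT (log2 fold change -0.145, SE 0.050, adjusted p = 0.0845). Its groups did not overlap, and its adjusted p ran from 0.0381 to 0.261 over the alternatives. Rsu1, which binds PINCH-1, had a log2 fold change of 0.09 in Mut (SE 0.065, adjusted p = 0.514).

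Sdc4 (ENSMUSG00000017009.3, chromosome 2, minus strand, 164424247 to 164443887) encodes syndecan-4, a heparan sulphate proteoglycan that acts beside integrins as a receptor for fibronectin. It was higher without overlap both with siSmim30 and in Mut. The siSmim30 libraries had 140.2, 151 and 137 CPM, against 104, 103 and 104 CPM in the siCtrl libraries (1.39-fold, log2 fold change 0.48, SE 0.046). The Mut libraries had 342, 332 and 296 CPM, against 269.6, 283 and 255 CPM in the WT libraries (1.19-fold, log2 fold change 0.25, SE 0.055). In both, the lowest siSmim30 or Mut library lay above the highest control library. Mut AdSmim30, at 266 ± 10.1 CPM, overlapped with Mut AdCtrl, at 278 ± 13.5 CPM (log2 fold change -0.06, SE 0.035). Mut stood highest, Mut AdCtrl, WT and Mut AdSmim30 overlapped in the middle, and siSmim30 and siCtrl came last. Sdc3, another syndecan, rose in Mut to 621 ± 24.1 CPM, against 514 ± 14.4 CPM in WT (log2 fold change 0.27, SE 0.047, adjusted p = 0.000322), with a highest adjusted p of 0.00343 over the alternatives. Sdc1 did not pass there, at 315 ± 26.3 CPM in Mut and 312 ± 4.4 CPM in WT (log2 fold change 0.01, SE 0.052, adjusted p = 0.961). Neither Sdc1 nor Sdc3 passed with the siRNA, with log2 fold changes of -0.25 (SE 0.104, adjusted p = 0.217) and 0.09 (SE 0.071, adjusted p = 0.646).

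Dpysl2 (ENSMUSG00000022048.8, chromosome 14, minus strand, 66802864 to 66868688) encodes CRMP-2, which binds tubulin and is best known for guiding microtubules in growing axons. The Mut libraries had 372, 384 and 390 CPM, against 282, 285 and 300 CPM in the WT libraries. No library of one group came near the other (1.31-fold, log2 fold change 0.39, SE 0.047). It was also higher with the overexpression virus, at 218, 217 and 216 CPM in Mut AdSmim30 libraries, against 191, 186 and 190.3 CPM in Mut AdCtrl libraries. The groups were tight and did not overlap (1.15-fold, log2 fold change 0.20, SE 0.034), and the fold change stayed between 0.195 and 0.207 as each library was left out. The summed level of 12 fibroblast and mesothelial markers differed between the same groups, at 52.2 to 59.8 CPM in Mut AdSmim30, where Msln and Krt19 were at 0, and 95.6 to 115.7 CPM in Mut AdCtrl, and its part in the result was not tested. In IC-21 the groups overlapped at 268 ± 3.2 CPM in siSmim30 and 268 ± 8.9 CPM in siCtrl (log2 fold change 0.02). By library total the order was Mut, WT, siSmim30, siCtrl, Mut AdSmim30 and Mut AdCtrl, with overlap of both IC-21 groups only. On effective sizes Mut AdSmim30, at 255 ± 0.477 CPM, and Mut AdCtrl, at 222 ± 2.33 CPM, came above siSmim30, at 194 ± 2.32 CPM, and siCtrl, at 190.3 ± 7.57 CPM. Of the other CRMP genes, Dpysl3 was low and did not pass in Mut, at 3.12 ± 0.435 CPM, against 4.07 ± 0.332 CPM in WT (adjusted p = 0.437). Crmp1, Dpysl4 and Dpysl5 were below the filter.

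**Figure D4:**
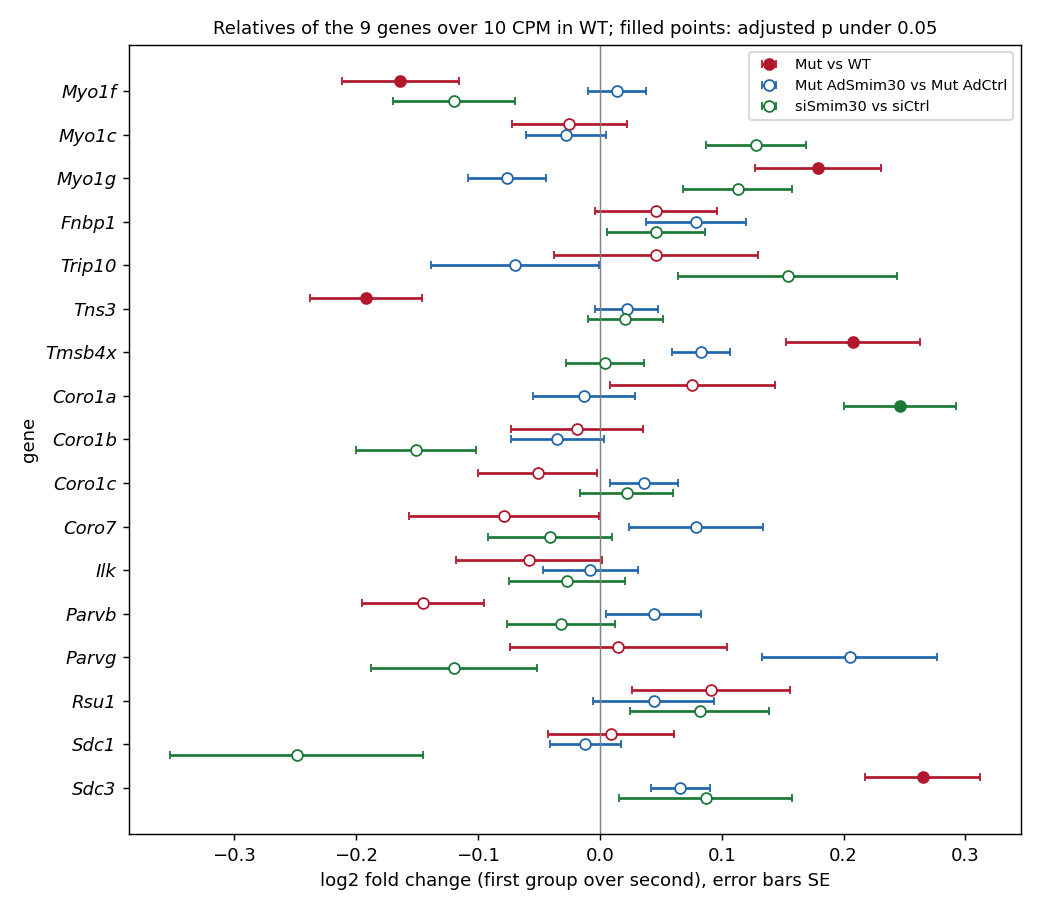
Log2 fold change (horizontal, error bars SE) of family or complex relatives with at least 10 CPM in WT (vertical) in the 3 Smim30 comparisons; filled points passed an adjusted p of 0.05. Sdc3, Tmsb4x and Myo1g are filled above 0 and Tns3 and Myo1f below 0 for Mut over WT, and Coro1a is filled above 0 for siSmim30 over siCtrl.

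The summed levels of several marker lists, and ribosomal RNA, also differed between Mut and WT, in most lists through 1 gene. The 7 macrophage markers summed to 9054 to 9509 CPM in Mut and 10350 to 11020 CPM in WT. Lyz2 carried most of that difference, with a mean of 6114 CPM in Mut and 7438 CPM in WT, while Adgre1 stood at 698 CPM in Mut and 696 CPM in WT and the means of Fcgr1, Mertk and Itgam were higher in Mut. The 6 B cell markers summed to 51.9 to 57.2 CPM in Mut and 72.9 to 79.6 CPM in WT, mostly Cd22, at 48.96 CPM in Mut and 69.6 CPM in WT. The means of Pax5 and Cd79b were higher in Mut. The 7 dendritic cell markers summed to 9.06 to 14.2 CPM in Mut and 6.92 to 7.43 CPM in WT, mainly through Batf3, at 6.44 CPM in Mut and 2.33 CPM in WT, while Zbtb46 stood at 3.33 CPM in Mut and 3.27 CPM in WT. The 5 mast cell markers summed to 7.93 to 9.39 CPM in Mut and 6.69 to 7.85 CPM in WT, with Kit at 3.16 CPM in Mut and 1.53 CPM in WT. No marker of these 4 lists was at 0 in either group. The 12 fibroblast and mesothelial markers overlapped, at 268 to 296 CPM in Mut and 275 to 302 CPM in WT, where Lum was at 0. Ribosomal RNA genes took 0.400 to 1.03% of counts in Mut and 1.74 to 2.49% in WT. The part of these differences in the values of the 9 genes was not tested.

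To show the machinery around the 9 genes, 8 lists of 201 companion genes were drawn by function, of which 200 were found. Earlier results of these data were known when the lists were drawn, so they are not independent of the data. In Mut over WT, 18 of 176 tested companions rose, 8 fell and 150 did not pass (14.8% called, against 6.3% of all genes). The companions had higher counts than most genes, with a median average log2 CPM of 6.72, against 4.31 for all genes tested, and their median log2 fold change was 0.05. The number called was 15 without WT replicate 2, 16 without Mut replicate 1 and 17 without Mut replicate 2. Among 33 integrin adhesion genes, Zyx rose and Tns3 fell (6.06% called, near the 6.3% of all genes). Zyx, the gene of zyxin, which gathers on stretched actin at adhesions, rose 1.58-fold to 334 ± 29.9 CPM in Mut, against 209 ± 8.63 CPM in WT (log2 fold change 0.66, SE 0.059, adjusted p = 1.16e-07). Among 35 filament-binding genes 7 rose and 0 fell (20% called). They include Lsp1, the gene of a leukocyte actin-binding protein, at 59.8 ± 3.46 CPM in Mut and 43.6 ± 2.22 CPM in WT (log2 fold change 0.44, SE 0.072, adjusted p = 0.000101). Cnn3, of the calponin family, also passed (log2 fold change 0.59, SE 0.162, adjusted p = 0.0243), but not with DESeq2 or without WT replicate 1 or 2 or Mut replicate 1 (highest adjusted p 0.19). Of 16 myosins 2 rose and 4 fell (37.5% called). Myo7a fell to 38.4 ± 4.92 CPM in Mut, against 55.9 ± 4.64 CPM in WT (log2 fold change -0.54, SE 0.084, adjusted p = 8.79e-05), and Myo5a, the gene of a vesicle-carrying myosin, fell with a log2 fold change of -0.275 (SE 0.047, adjusted p = 0.000201).

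Among 5 syndecan and glypican genes 2 rose in Mut, Sdc3 and Gpc1 (40% called, against 6.3% of all genes). Gpc1, the gene of a lipid-anchored heparan sulphate proteoglycan, rose to 157 ± 10.6 CPM in Mut, against 128 ± 5.26 CPM in WT (log2 fold change 0.29, SE 0.056, adjusted p = 0.000904). In the list of CRMPs and microtubule regulators 1 of 19 rose and 3 fell (21.1% called by edgeR, against 6.3% of all genes). DESeq2 called 2 genes of this list. Tuba1c fell, with a log2 fold change of -0.26 (SE 0.065, adjusted p = 0.0111), but not without WT replicate 3 or Mut replicate 2 (highest 0.111). Map1s fell with one of -0.23 (SE 0.065, adjusted p = 0.0238), a call lost with DESeq2 and without any single library other than Mut replicate 3 (highest 0.162). In the list of monomer binding and nucleation, Tmsb4x was the 1 of 28 that rose (3.57% called). Of 17 BAR protein genes 0 were called by edgeR (5 at an unadjusted p under 0.05, 0 by DESeq2).

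With siSmim30, 15 of 164 tested companions rose, 2 fell and 147 did not pass (10.4% called, against 3.48% of all genes, with a median average log2 CPM of 6.93 against 4.73). In the list of monomer binding and nucleation 3 of 28 rose and 1 fell (14.3% called). Fmnl1, the gene of a formin that lengthens filaments in leukocytes, rose to 222 ± 8.32 CPM in siSmim30, against 169.9 ± 11.5 CPM in siCtrl (log2 fold change 0.40, SE 0.043, adjusted p = 7.64e-10). Twf1, the gene of the monomer-binding twinfilin, rose to 110.0 ± 2.14 CPM in siSmim30, against 89.1 ± 1.82 CPM in siCtrl (log2 fold change 0.32, SE 0.050, adjusted p = 6.17e-06). Of 33 filament-binding genes 5 rose and 1 fell (18.2% called). Ezr, the gene of the membrane linker ezrin, rose (log2 fold change 0.26, SE 0.048, adjusted p = 0.000159), and Tpm1, the gene of a tropomyosin, fell to 64.3 ± 0.56 CPM in siSmim30, against 78.7 ± 1.66 CPM in siCtrl (log2 fold change -0.27, SE 0.058, adjusted p = 0.00136). Myh9, the heavy chain of non-muscle myosin, rose (log2 fold change 0.14, SE 0.029, adjusted p = 0.000667), as did Gas7 of the F-BAR family (log2 fold change 0.21, SE 0.036, adjusted p = 0.000148).

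Some marker lists also parted between both IC-21 groups. B cell markers summed to 48.5 to 55.9 CPM in siSmim30 and 57.04 to 62.1 CPM in siCtrl, of which Cd22 made up 51.7 CPM in siSmim30 and 59.2 CPM in siCtrl, with Cd79b and Pax5 at 0 in both. Dendritic cell markers summed to 8.12 to 9.22 CPM in siSmim30 and 9.48 to 11.3 CPM in siCtrl, with Flt3 and Ccr7 at 0 in both, and neutrophil markers to 3.34 to 3.701 CPM in siSmim30 and 4.08 to 5.32 CPM in siCtrl, nearly all S100a8, with Ly6g, S100a9 and Ngp at 0 in both. Macrophage markers overlapped, at 2608 to 2804 CPM in siSmim30 and 2664 to 2808 CPM in siCtrl. The part of these markers in the siRNA values of the 9 genes and their companions was not tested.

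In the integrin adhesion list 2 of 31 rose with siSmim30 (6.45% called, against 3.48% of all genes), Zyx and Lpp, which is a relative of zyxin. Zyx was at 71.0 ± 3.01 CPM in siSmim30 and 61.5 ± 1.01 CPM in siCtrl (log2 fold change 0.22, SE 0.061, adjusted p = 0.0208), a call lost with DESeq2 and without siCtrl replicate 2 or siSmim30 replicate 3 (highest 0.149). Lpp had an adjusted p of 0.0178 that ran up to 0.716 over the alternatives, and was lost with DESeq2, with all 18 libraries and without siCtrl replicate 1 or 3 or siSmim30 replicate 1 or 2. Cd44, a hyaluronan receptor kept in the list of syndecans, rose (adjusted p = 0.0276, log2 fold change 0.105). It was lost under 8 of the alternatives, among them DESeq2, all 18 libraries and library totals alone, and each of siCtrl replicates 1 and 2 and siSmim30 replicates 1 and 2 left out. In the list of CRMPs and microtubule regulators 0 of 16 were called by edgeR (5 at an unadjusted p under 0.05, 0 by DESeq2).

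In Mut AdSmim30 over Mut AdCtrl, 3 of 175 companions rose, 2 fell and 170 did not pass (2.86% called, against 1.43% of all genes, with a median average log2 CPM of 6.75 against 4.29). The number called was 2 with Mut AdCtrl replicate 1 left out, 15 with Mut AdCtrl replicate 3 left out, and 3 without Mut AdSmim30 replicate 1, 2 without replicate 2 and, by edgeR, 0 without replicate 3 (25 at an unadjusted p under 0.05). By DESeq2 it was 1. Myo10, the gene of the myosin of filopodium tips, rose to 133 ± 4.99 CPM in Mut AdSmim30, against 116 ± 6.39 CPM in Mut AdCtrl (log2 fold change 0.20, SE 0.042, adjusted p = 0.00307). It was lost with DESeq2 and without Mut AdCtrl replicate 1 or Mut AdSmim30 replicate 3 (highest 0.104). Gsn, the gene of the filament-severing gelsolin, had an adjusted p of 0.0204 (log2 fold change 0.15), Fscn1 of the bundler fascin one of 0.0269 (log2 fold change -0.84) and Map1s one of 0.0447 (log2 fold change -0.17). Each of these 3 was lost with DESeq2 and without Mut AdCtrl replicate 1 or Mut AdSmim30 replicate 2 or 3, among others, with highest values of 0.252 for Gsn, 0.432 for Fscn1 and 0.316 for Map1s. The 12 fibroblast and mesothelial markers, at 52.2 to 59.8 CPM in Mut AdSmim30 and 95.6 to 115.7 CPM in Mut AdCtrl, differed between the same groups. Macrophage markers also parted, at 9488 to 9597 CPM in Mut AdSmim30 and 9645 to 9763 CPM in Mut AdCtrl. Single ones went both ways, with Lyz2 at 6144 CPM in Mut AdSmim30 and 6316 CPM in Mut AdCtrl. Adgre1 stood at 409 CPM in Mut AdSmim30 and 371 CPM in Mut AdCtrl. The part of these markers in these calls was not tested.

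Mut macrophages with control virus were set against Mut macrophages without it, a comparison that does not change Smim30 and in which the 9 genes were tested. It shares the Mut and Mut AdCtrl libraries with both primary-cell comparisons above, and virus, the added time in culture and the part of the series coincide, so their effects cannot be told apart. The 9 genes were chosen on comparisons that use these libraries, so the choice can bias their fold changes and p-values here. By edgeR's quasi-likelihood test 2 of the 9 rose, 6 fell and Tmsb10 did not pass, where 53.6% of 12798 genes were called (27.1% higher and 26.5% lower). Tns1 had 424, 452 and 464 CPM in Mut AdCtrl libraries, against 106, 115 and 123.5 CPM in Mut libraries. It rose 3.79-fold, the largest change of the 9 here, with every Mut AdCtrl library above every Mut library (log2 fold change 1.92, SE 0.051, adjusted p = 2.2e-23). Myo1e rose 1.56-fold to 469 ± 12.8 CPM in Mut AdCtrl, against 294 ± 19.9 CPM in the Mut libraries (log2 fold change 0.64, SE 0.045, adjusted p = 1.38e-13). Dpysl2 had 191, 186 and 190.3 CPM in Mut AdCtrl libraries, against 372, 384 and 390 CPM in Mut libraries. The groups were far apart, with Mut AdCtrl at 48.4% of Mut (log2 fold change -1.05, SE 0.043, adjusted p = 1.55e-19). Fnbp1l fell to 119 ± 5.7 CPM in Mut AdCtrl, against 190.3 ± 15.5 CPM in Mut, a level of 61.4% (log2 fold change -0.70, SE 0.056, adjusted p = 1.16e-11).

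Smaller falls with control virus were seen for Lims1 (log2 fold change -0.385, adjusted p = 3.02e-08), Sdc4 (-0.25, adjusted p = 0.000266) and Efhd2 (-0.16, adjusted p = 0.000985), each without overlap of groups. Coro2a also fell (log2 fold change -0.30, SE 0.082, adjusted p = 0.00686), although its libraries, at 79.5 to 89.2 CPM in Mut AdCtrl and 87.9 to 112 CPM in Mut, overlapped. Tmsb10 was at 228 ± 5.4 CPM in Mut AdCtrl, against 234 ± 4.6 CPM in Mut (a log2 fold change of -0.07, adjusted p = 0.181). Relatives moved both ways. Tns3 rose 1.82-fold (adjusted p = 2.63e-18), Myo1f 1.79-fold (adjusted p = 2.38e-17), Coro1c 1.61-fold (adjusted p = 5.03e-15) and Sdc3 1.56-fold (adjusted p = 3.98e-15). Tmsb4x fell to 55.7% of Mut (adjusted p = 1.25e-18) and Fnbp1 to 79.2% (adjusted p = 8.74e-07). Of 175 companions 56 rose, 75 fell and 44 did not pass (74.9% called, against 53.6% of all genes, with a median average log2 CPM of 6.83 against 4.29). The 12 fibroblast and mesothelial markers summed to 95.6 to 115.7 CPM in Mut AdCtrl and 268 to 296 CPM in Mut, none of them at 0, and the macrophage markers to 9645 to 9763 CPM in Mut AdCtrl and 9054 to 9509 CPM in Mut. Macrophage markers went both ways, with Adgre1 at 371 CPM in Mut AdCtrl and 698 CPM in Mut, Csf1r at 752 CPM in Mut AdCtrl and 879.8 CPM in Mut, and Cd68 at 2008 CPM in Mut AdCtrl and 1435 CPM in Mut. B cell markers summed to 82.9 to 94.6 CPM in Mut AdCtrl and 51.9 to 57.2 CPM in Mut, mostly Cd22. Dendritic cell markers summed to 4.15 to 5.01 CPM in Mut AdCtrl, where Flt3 and Xcr1 were at 0, and 9.06 to 14.2 CPM in Mut. Mast cell markers summed to 3.50 to 5.11 CPM in Mut AdCtrl and 7.93 to 9.39 CPM in Mut. Neutrophil markers, nearly all S100a8, summed to 1.84 to 2.93 CPM in Mut AdCtrl and 5.76 to 9.19 CPM in Mut, with Ly6g and S100a9 at 0 in both. Ribosomal RNA genes took 0.225 to 0.398% of counts in Mut AdCtrl and 0.400 to 1.03% in Mut. The part of these differences in the results was not tested.

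IC-21 cells with siCtrl were set against WT peritoneal macrophages, which shares libraries with the mutant and siRNA comparisons. As the 9 genes were chosen on those comparisons, the choice can bias their values here too. Line, transfection and part of the series coincide there and cannot be told apart. Of the 9, 7 fell, 1 rose and Coro2a did not pass, where 80.3% of 14066 genes were called (40.1% higher and 40.2% lower). The scaling matters here: with library totals alone the median log2 fold change of all genes moved by 0.705, while that of the other comparisons moved by 0.033 or less. Tns1 had 15.8, 17.8 and 17.01 CPM in siCtrl libraries, against 179, 171 and 173 CPM in WT libraries. It was 6.0% of WT by the fit, the largest fall of the 9 (log2 fold change -4.06, or -3.35 with library totals alone, adjusted p = 7.73e-43). Efhd2 fell to 145 ± 6.2 CPM in siCtrl, against 660.3 ± 2.7 CPM in WT (log2 fold change -2.89, or -2.18, adjusted p = 1.9e-42). Tmsb10 fell (log2 fold change -2.47, or -1.76, adjusted p = 3.8e-37), and so did Sdc4 (log2 fold change -2.08, or -1.37, adjusted p = 1.41e-36). Lims1 (-1.11, or -0.40, adjusted p = 5.83e-27), Myo1e (-1.05, or -0.34, adjusted p = 1.71e-24) and Dpysl2 (-0.81, or -0.11, adjusted p = 2.22e-21) fell less.

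Fnbp1l was the one that rose in siCtrl IC-21 cells, at 218 ± 10.6 CPM in siCtrl and 124 ± 0.526 CPM in WT (log2 fold change 0.11, or 0.82 with library totals alone, adjusted p = 0.0301). That call was lost with RLE scaling (0.0588), without a filter (0.0779), with all 18 libraries (0.168), with DESeq2 (0.123) and without any single library other than siCtrl replicate 1 (up to 0.185). Coro2a, at 100.3 ± 5.2 CPM in siCtrl and 59.99 ± 3.9 CPM in WT, had a log2 fold change of 0.04 (adjusted p = 0.601) and passed only with library totals alone (0.74, adjusted p = 3.22e-14). Among relatives, Sdc3 stood at 49.7 ± 3.87 CPM in siCtrl and 514 ± 14.4 CPM in WT (adjusted p = 4.27e-46), and Sdc1 at 25.4 ± 1.18 CPM in siCtrl and 312 ± 4.4 CPM in WT (adjusted p = 1.33e-46). Lims2, the gene of the second PINCH protein, was 13-fold higher by the fit (log2 fold change 3.70, or 4.40 with library totals alone, adjusted p = 1.15e-26). Over library totals it stood at 46.97 ± 4.83 CPM in siCtrl and 2.23 ± 0.421 CPM in WT. Parva and Dpysl3 had no counts in siCtrl libraries, where a count of 3 is worth 0.25 to 0.438 CPM, against 3.78 ± 0.765 CPM and 4.07 ± 0.332 CPM in WT. Of 179 companions 40 rose, 128 fell and 11 did not pass (93.9% called, against 80.3% of all genes, with a median average log2 CPM of 6.77 against 4.4). Their median log2 fold change was -0.82 with TMM scaling, against 0.011 for all genes. These directions can depend on the scaling, as library totals alone shift the median of all genes by 0.705. The 12 fibroblast and mesothelial markers summed to 0.25 to 0.347 CPM in siCtrl, where 8 of them were at 0, and 275 to 302 CPM in WT. The macrophage markers summed to 2664 to 2808 CPM in siCtrl and 10350 to 11020 CPM in WT, mostly through Lyz2, at 719 CPM in siCtrl and 7438 CPM in WT. Itgam, at 142 CPM in siCtrl and 87.1 CPM in WT, and Fcgr1, at 36.5 CPM in siCtrl and 3.31 CPM in WT, went the other way. The 5 mast cell markers were at 0 in siCtrl, against 6.69 to 7.85 CPM in WT. B cell markers summed to 57.04 to 62.1 CPM in siCtrl and 72.9 to 79.6 CPM in WT. Neutrophil markers summed to 4.08 to 5.32 CPM in siCtrl and 7.85 to 9.85 CPM in WT. Dendritic cell markers were higher, at 9.48 to 11.3 CPM in siCtrl and 6.92 to 7.43 CPM in WT. Ribosomal RNA genes took 0.195 to 0.414% of counts in siCtrl and 1.74 to 2.49% in WT. The part of these differences in the values above was not tested.

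**Figure D5:**
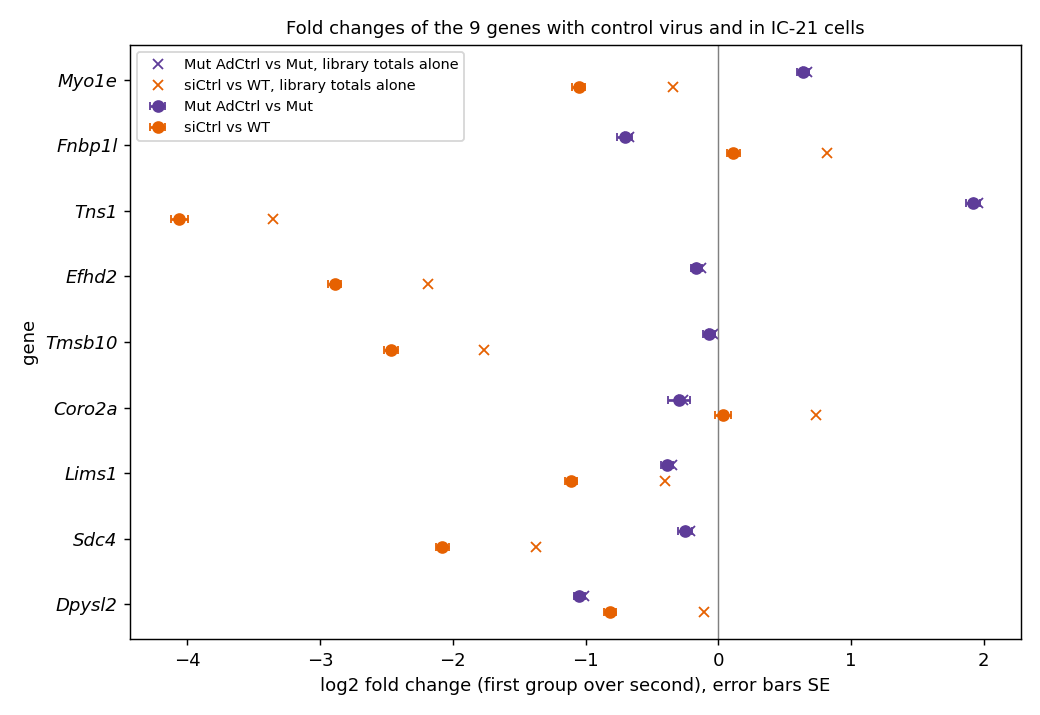
Log2 fold change (horizontal) of the 9 genes (vertical) for Mut AdCtrl over Mut and siCtrl over WT; filled points with SE bars come from TMM scaling, crosses from library totals alone. Tns1 lies at 1.92 for Mut AdCtrl over Mut and at -4.06 for siCtrl over WT, where each cross lies to the right of its point.

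Per kilobase of exon, which allows levels of different genes to be compared, Efhd2 had the highest level of the 9 in all 6 groups. It reached 274 CPM per kb in Mut and 277 CPM per kb in WT, and 89.8 CPM per kb in siSmim30 and 60.9 CPM per kb in siCtrl. Tmsb10 and Sdc4 followed in primary cells, at 183 and 127 CPM per kb in Mut and 139.9 and 106 CPM per kb in WT. Coro2a, Fnbp1l and Tns1 were the 3 lowest in every group. Tns1 ranged from 0.99 CPM per kb in siSmim30 and 1.02 CPM per kb in siCtrl to 25.8 CPM per kb in Mut AdSmim30 and 27.1 CPM per kb in Mut AdCtrl. The length used is the union of all annotated exons, which is longer than any one transcript of a gene with several.

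The genes most like each of the 9 were sought over the 18 libraries after the mean of each part of the series was taken off, among 8067 genes, and are given as a description by Pearson's r of log2 CPM. Since each part holds 3 libraries against 3, such an r follows the group differences. Apbb2 was most like Myo1e (r = 0.969), Sav1 most like Fnbp1l (r = 0.956) and Cd40, a costimulatory receptor, most like Coro2a (r = 0.947). Bcl6, the gene of a transcriptional repressor, was most like Tns1 (r = 0.945). Spp1, the gene of osteopontin, was most like Tmsb10 (r = 0.935), followed by Lpl (r = 0.927). Slc15a3 was most like Sdc4 (r = 0.925), and Plaur, the receptor of urokinase, most like Lims1 (r = 0.923). C9orf72 was most like Efhd2 (r = 0.923), and Rap1b, the gene of a small GTPase that switches integrins on, and Apbb2 were most like Dpysl2 (r = 0.904 each).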

How the data were processed

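RNA of 18 libraries in 6 groups of 3 was sequenced from strand-specific libraries, per the labels' protocols. The submitters' processing notes name fastp, FastQC, HISAT2 and featureCounts. Per the file headers, the authors deposited unnormalised counts: featureCounts 2.0.3 summed read pairs over the exons of each gene of GENCODE M25. M25 is an annotation of GRCm38. The number in each file's header differed from that in its name, and samples were taken from the series record. Symbols matched 55141 of 55401 identifiers.

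Each comparison was fitted to its own 6 libraries in edgeR 4.0.16 (R 4.3.3) with filterByExpr, TMM scaling, the robust quasi-likelihood F test and Benjamini-Hochberg adjustment over all genes tested, at 0.05. SE was derived from the F statistic. Likeness used genes with at least 5 CPM in each part. Near-identical copies came from BLAST of the annotated transcripts of an earlier GENCODE release than the one counted. That release also gave the gene types, such as protein-coding and ribosomal RNA.

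The 9 genes, their relatives and the companion lists were chosen with earlier results of these data known. Named companions are, per list and Smim30 comparison, up to 2 called genes with the largest fold change and an average log2 CPM of at least 2. One listed companion was left out because its symbol is used more than once. The results of 1 of the 8 companion lists are not reported here by gene. At the depths given, 3 counts, taken as the detection floor, are worth 0.223 to 0.438 CPM, which covers counting error only. The chi-square of counts between replicates, per gene and degree of freedom, was 1.91 to 4.59, and the 3 libraries of each group were counted as separate samples. Alternatives were RLE scaling, library totals alone, no filter, at least 1 CPM in 3 libraries, all 18 libraries, replicate number as a block, DESeq2 1.42.0 and leaving out each library. Tests were run on simulated data with 50 genes per fold size. The simulation of Mut over WT (12500 genes) recovered 30% of seeded changes of 1.25-fold, 54% of those of 1.5-fold, 94% of 2-fold and 90% of 3-fold. There 3.6% of calls were false, the lowest share of the 5 comparisons, and the highest was 5.56% in Mut AdCtrl over Mut. Simulated counts took the spread typical of a gene's level, not the spread of each gene itself. No protein sequences were used here.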

Additional observations from a re-analysis of the deposited data

Results flagged for a closer look

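Tmsb10 moved in opposite directions in the 2 settings in which Smim30 was mutated or knocked down. Its log2 fold change was 0.38 for Mut over WT, with every Mut library above every WT library, and -0.22 for siSmim30 over siCtrl, with every siSmim30 library below every siCtrl library. The difference between both fold changes was not tested. Primary cells and the IC-21 line also differed in the level of the gene, at 234 ± 4.6 CPM in Mut and 179 ± 5.3 CPM in WT, and 44.6 ± 1.5 CPM in siSmim30 and 52.6 ± 2.6 CPM in siCtrl. With the 6 near-identical copies added, the log2 ratios of mean CPM over library totals were 0.38 and -0.15. Tmsb10 by itself had log2 fold changes of 0.39 and -0.24 with library totals alone.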

How the results depend on the processing

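In the 3 Smim30 comparisons the fold change of each of the 9 genes moved by less than the spread between replicates under every alternative run. For the runs that left out a library this says little. Leaving out 1 of 3 libraries can hardly move a group mean by more than that spread, so no conclusion is drawn from them. In Mut AdCtrl over Mut, all 9 kept their direction and their side of the threshold. In siCtrl over WT, Fnbp1l and Coro2a did not, with the values given in the report. Fitting all 18 libraries together changed the number of genes called from 788 to 1198 for Mut over WT (companions 26 to 40), from 181 to 87 for Mut AdSmim30 over Mut AdCtrl (companions 5 to 3) and from 472 to 263 for siSmim30 over siCtrl (companions 17 to 11). DESeq2 called 68 genes and 1 companion for Mut AdSmim30 over Mut AdCtrl, and 243 genes and 10 companions for siSmim30 over siCtrl. As each library was left out, genes called ran from 469 (without Mut replicate 2) to 957 for Mut over WT, from 66 (without Mut AdSmim30 replicate 3) to 453 (without Mut AdCtrl replicate 3) for Mut AdSmim30 over Mut AdCtrl, from 309 (without siCtrl replicate 2) to 422 for siSmim30 over siCtrl, from 6274 to 6666 for Mut AdCtrl over Mut (6862 with all) and from 11074 to 11438 for siCtrl over WT (11299 with all). Mut AdSmim30 over Mut AdCtrl also gave 82 without Mut AdCtrl replicate 1 and 106 without Mut AdSmim30 replicate 2. Companions called ran from 15 to 28, 0 to 15, 12 to 17, 122 to 130 and 165 to 168 in the same 5 comparisons. With library totals alone, 4 relatives reversed in siCtrl over WT, Fnbp1 to a log2 fold change of 0.34, Tns3 to 0.30, Coro1a to 0.59 and Rsu1 to 0.20, where the scaling itself shifts the median of all genes. Same-numbered replicates did not deviate together over all genes that passed the filter (r from -0.0817 to 0.0682). Such an r mixes counting error with any shared deviation, so it cannot exclude that the numbers pair samples. The main fits treated libraries as unpaired. With replicate number as a block, Mut AdSmim30 over Mut AdCtrl gave 253 genes and 8 companions, siSmim30 over siCtrl 546 and 19, Mut over WT 782 and 26, Mut AdCtrl over Mut 6688 and 129, and siCtrl over WT 11191 and 168. The cause of the other changes in number was not tested. All 54 mean levels of the 9 genes moved when effective sizes replaced library totals, upward in primary cells and downward in IC-21.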
